A study of Mus musculus with 6 samples.

Results

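The 39 genes described here are early response genes outside the AP-1 (Fos and Jun) family, a list of transcripts that rise with the stress of cell isolation and with the first hours of activation of muscle stem cells. They were taken by name. All 39 were found among the 55376 genes of the tables, 38 under the listed symbol and Cyr61 under its current symbol Ccn1. CPEB1 RNA immunoprecipitation sequencing (RIP-seq) had been performed on muscle stem cells (satellite cells, SCs) of C57BL/6 mice aged 3 months, which were sorted as CD31-, CD45-, Sca1- and Vcam1+ and lysed without culture (freshly isolated SCs, fiSCs). Of the 6 libraries, 2 held RNA precipitated with anti-CPEB1 (CPEB1 IP), 2 held RNA precipitated with IgG as the control and 2 held input RNA with no antibody. No group carried a transgene or a treatment, and all of them shared the digestion of the muscle and the sort. The comparison of CPEB1 IP with IgG asked which transcripts were associated with CPEB1 in fiSCs, and the comparisons with input asked how each precipitate differed from the RNA that the cells held.

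Early response genes are switched on quickly after a stimulus without the need for new protein, and many of their mRNAs are short-lived. Most of them encode transcription factors, or proteins that shut signaling down again, such as phosphatases, cytokine signaling inhibitors and mRNA decay factors. CPEB1 binds the cytoplasmic polyadenylation element (CPE), a U-rich motif in the 3′ UTR, and through it controls the poly(A) tail and the translation of an mRNA, while AU-rich elements in 3′ UTRs recruit decay factors that include the ZFP36 proteins, themselves encoded by members of the list.

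In the 3′ UTRs that GENCODE M21 annotates on mm10, a CPE (TTTTAT or TTTTAAT on the transcript strand) was found in 30 of the 39 members, or 76.9% (exact Clopper-Pearson interval 60.7 to 88.9%, which covers counting error only). Among the 10875 genes tested against IgG that have a 3′ UTR, the share was 66.9%. The median of the longest 3′ UTR was 1111 bases in the members and 1285 bases in those genes. When both were limited to longest 3′ UTRs between 651.5 and 1821.5 bases, the middle range of the members, a CPE was found in 84.2% of 19 members and in 68.2% of 3713 genes. The AU-rich core ATTTA was found in 34 members, or 87.2%, against 73.3% of all those genes. Its extended form TATTTAT, which holds ATTTA, was found in 21 members, or 53.8%, against 34.0% of all those genes, and in 57.9% against 29.7% within the same range of lengths. A polyadenylation signal (AATAAA or ATTAAA) was found in 38 members, or 97.4%, against 94.3% of all those genes. These shares are descriptions, and a motif match is not a measured binding site. Of the members, 5 have a single exon (Ier2, Ier5, Cebpb, Cebpd and Rhob), or 12.8% against 1.78% of those genes.

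CPEs close to the end of a 3′ UTR are shown because they are the motif that CPEB1 recognizes. The 10 windows of 30 bases come from 7 members that either passed the test of CPEB1 IP against IgG or were among the 12 highest in input, and they hold each CPE within the last 150 bases of the 3′ UTR. Sequences are from the GENCODE M21 transcripts, with mm10 coordinates and the transcript strand, written 5′ to 3′ with the CPE in capitals.
Klf6 (chr13:5870293-5870322, + strand): tgttttacaagaTTTTATttgaaattgttt
Klf6 (chr13:5870346-5870375, + strand): tatgaatgtattTTTTATtcgaataacata
Myc (chr15:61990268-61990297, + strand): taccataattttTTTTATttaaagacattt
Cebpb (chr2:167690373-167690402, + strand): aagtgaagacaTTTTAATaaacttttttgg
Dusp1 (chr17:26505610-26505639, - strand): tgggatgactttTTTTATacaacagaataa
Socs3 (chr11:117966079-117966108, - strand): aagagcactattTTTTAATgaaaaaaaaaa
Ccn1 (chr3:145647096-145647125, - strand): gattgaatgtttTTTTATttatcaaagtgt
Ccn1 (chr3:145647027-145647056, - strand): tttgtaaatgaTTTTAATtttatatcagtg
Ccn1 (chr3:145647022-145647051, - strand): aaatgattttaaTTTTATatcagtgaagag
Sgk1 (chr10:21999767-21999796, + strand): gtaaaccatcaTTTTAATgtactgtaatta
From the first base of the CPE to the first base of the next polyadenylation signal there were 4 bases in Cebpb, where the motifs overlap, 13 in Dusp1, 59 in Myc and 97 in Sgk1. The Ccn1 CPEs lay 117, 49 and 43 bases before the signal, and the second of them overlaps the third. No signal followed the CPEs of Klf6 and Socs3 before the annotated end.

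The extended AU-rich motif is shown for Zfp36 (tristetraprolin), whose protein binds such elements. Its 3 matches, in capitals, lie on chromosome 7 of mm10 and are read on the - strand from the same transcripts.
Zfp36 (chr7:28376965-28376994, - strand): agtgggcccttTATTTATgacgactttatt
Zfp36 (chr7:28376950-28376979, - strand): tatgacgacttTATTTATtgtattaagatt
Zfp36 (chr7:28376925-28376954, - strand): agattttatagTATTTATatatattgggtc
Each window overlaps the next. Ier3 held the most matches of any member, 4 in its 3′ UTR, and Dusp1, Zfp36l1 and Zfp36l2 held 3 each.

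The depth on genes ranged from 1284716 and 1359052 counts (IgG) over 3270067 and 3314547 (input) to 2564323 and 4941653 (CPEB1 IP). The FPKM were computed by the authors on a larger library total, of which the counts on genes made up 69.5 to 69.9% in CPEB1 IP, 39.1 to 39.5% in IgG and 71.1 to 79.8% in input. All 9 SC markers were detected in input, with a summed level of 2636 and 3160 FPKM, against 22.8 and 21.5 FPKM for 5 endothelial markers 17.6 and 12.2 FPKM for 6 immune markers and 179 and 224 FPKM for 4 smooth muscle and pericyte markers, mostly Acta2 at 133 and 159 FPKM, and Ptprc (CD45) was at 0 and 0.0132 FPKM. Marker levels differed between the groups. Of the 9 SC markers, 5 (55.6%) were higher and 0 lower in CPEB1 IP than in IgG (median log2 fold change 0.26). Of all genes tested 14.7% were higher, of those with at least 10 FPKM in input 39.1% and with at least 100 FPKM 55.8%. Against input, 4 SC markers were lower in CPEB1 IP and 1 was higher, and 6 were lower in IgG and 1 was higher. At 10 FPKM or more, 21.6% of genes were lower and 24.7% higher in CPEB1 IP, and 40.3 and 10.5% in IgG. Of the smooth muscle and pericyte markers, 3 of 4 (Acta2, Rgs5 and Pdgfrb) were lower than input in CPEB1 IP and in IgG, while 4 of the 5 endothelial markers were higher in CPEB1 IP than in input and 4 were higher in IgG. Markers of other lineages rose too. In CPEB1 IP, 3 of 3 Schwann, 2 of 3 fibro-adipogenic, 1 of 2 immune, 1 of 1 tendon and 1 of 4 myofibre markers tested were higher than input. In IgG these were 1 of 3, 3 of 4, 2 of 3, 1 of 1 and 1 of 4. Of these lineages, only 1 marker (Cd34) was lower than input, in both precipitates. The summed endothelial level was 98.6 and 113 FPKM in CPEB1 IP and 46.5 and 41.4 FPKM in IgG. Most of it was Cldn5, at 79.9 and 93.6 FPKM in CPEB1 IP and 38.0 and 31.3 FPKM in IgG. These FPKM carry the difference in the part of the totals on genes. By the count test, 1 of the 5 endothelial markers (Cldn5) was higher in CPEB1 IP than in IgG and 0 lower (median log2 fold change 0.27). The part of these differences in the values of the early response genes was not tested, and in bulk RNA fewer cells of a type cannot be told apart from less RNA per cell.

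The members were among the more abundant transcripts of fiSCs. Their mean input level ranged from 2.05 FPKM (Dusp4) to 669 FPKM (Egr1), with a median of 100.3 FPKM against 4.87 FPKM over the genes tested. At least 100 FPKM was reached by 20 members, of 326 genes in the tables, and at least 10 FPKM by 36 members. Egr1, Nfkbia, Ier2, Myc, Nr4a1 and Ccn1 ranked 21, 32, 35, 44, 95 and 96 among all genes by input FPKM. Together the members took 2.17 and 2.09% of the counts on genes in input, 1.83 and 1.73% in CPEB1 IP and 1.46 and 1.44% in IgG. Input held the largest share, IgG the smallest, and the groups did not overlap. The groups kept this order without Egr1, the member with the most counts, at 1.76 and 1.70%, 1.52 and 1.44%, and 1.22 and 1.21%. With 2 libraries a group, an exact two-sided permutation test cannot go below p = 0.333, so these sums carry no test.

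**Figure D1:**
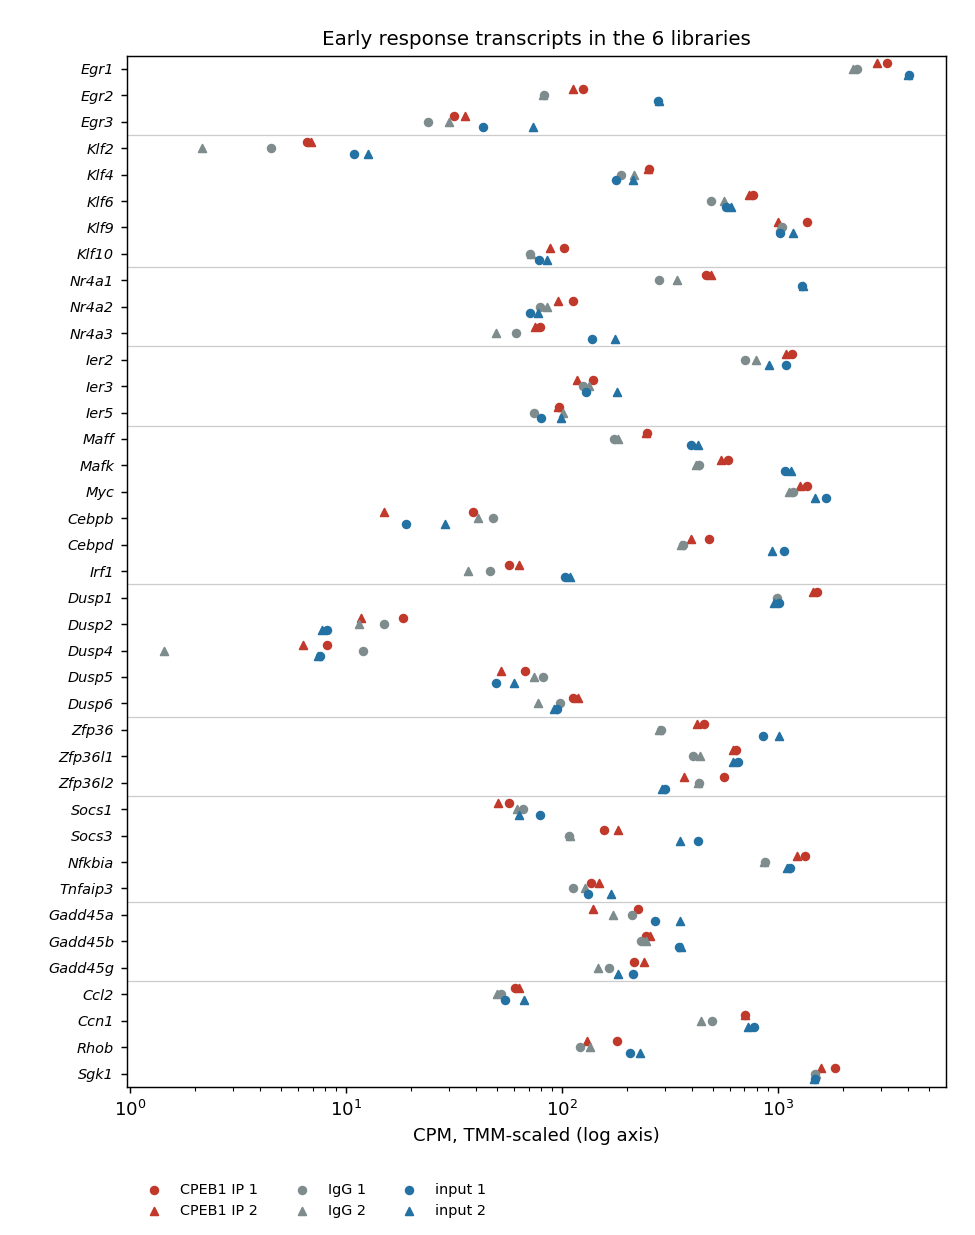
TMM-scaled CPM (counts relative to the library size, log axis) of the 39 members in each of the 6 libraries, with circles for replicate 1, triangles for replicate 2 and grey lines between functional groups. Egr1 is the highest member in every library, and Zfp36, Nr4a1, Egr2 and Socs3 run in the order IgG, CPEB1 IP, input without overlap.

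All 39 members had enough counts to be tested in every comparison. Of them, 15 were higher in CPEB1 IP than in IgG, 2 were lower and 22 did not pass the test (edgeR quasi-likelihood test, Benjamini-Hochberg adjusted p under 0.05 over 12124 genes). Of all genes tested, 14.7% were higher and 18.7% lower. That background depended on abundance: among the 3699 genes with at least 10 FPKM in input, 39.1% were higher and 4.79% lower, beside 41.7% and 5.56% of the 36 members at that level. The median log2 fold change was 0.26 over the members, -0.01 over all genes tested and 0.30 over the genes with at least 10 FPKM. At 100 FPKM or more, 13 of 20 members (65%) were higher and 0 lower, against 55.8 and 6.44% of 326 genes, with medians of 0.43 and 0.33. The members' share of higher calls thus lay near that of other genes of like abundance. The increases were small, from 1.27-fold (Mafk) to 1.50-fold (Socs3), and no member reached a 2-fold difference from IgG with a passed test. With any 1 library left out, 10 of the 15 still passed, namely Klf6, Nr4a1, Ier2, Maff, Mafk, Dusp1, Zfp36, Zfp36l1, Nfkbia and Ccn1. Neither of the 2 members that were lower than IgG did so.

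Against input, 5 members were higher in CPEB1 IP, 13 were lower and 21 did not pass the test, over 12171 genes of which 17% were higher and 15.8% lower. Among the genes with at least 10 FPKM in input the shares were 24.7 and 21.6%, beside 13.9 and 36.1% of the members at that level. At 100 FPKM or more, 2 of 20 members (10%) were higher and 8 (40%) lower, against 26.7 and 28.5% of 326 genes. The decreases were larger than the increases over IgG, and 5 of the 13 members that were lower than input differed by 2-fold or more. With any 1 library left out, 8 of the 13 still passed (Egr2, Nr4a1, Nr4a3, Maff, Mafk, Cebpd, Zfp36 and Socs3), and of the 5 that were higher only Dusp1 did. IgG was compared with input as the background of the precipitation. In that comparison 2 members were higher, 20 were lower and 17 did not pass, over 12980 genes of which 21.4% were higher and 19.4% lower. Among genes with at least 10 FPKM in input, 10.5% were higher and 40.3% lower, and the members at that level gave 5.56 and 52.8%. At 100 FPKM or more, 0 of 20 members were higher and 14 (70%) lower, against 15.3 and 51.8% of 326 genes. The 3 comparisons share libraries, so their calls are not independent of each other, and the values are given side by side.

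**Figure D2:**
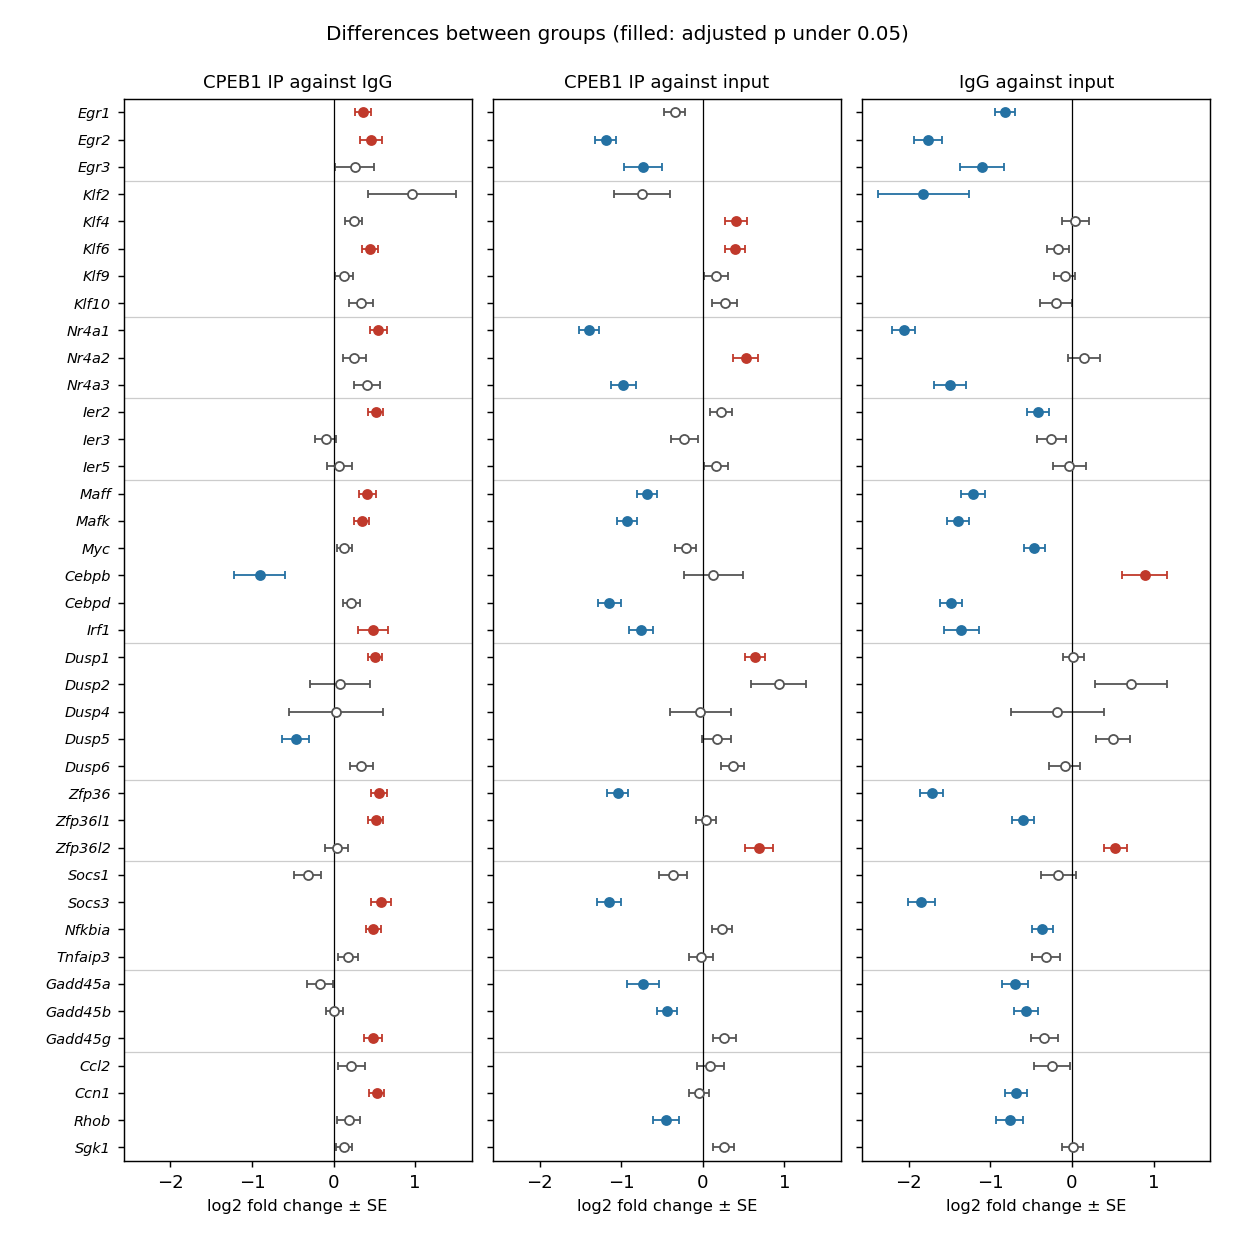
Log2 fold change with its SE for each of the 39 members in the 3 comparisons, filled where the adjusted p was under 0.05, red for higher and blue for lower. Against IgG the 15 higher members lie between 0.35 and 0.58, whereas against input the members spread from -1.40 to 0.93.

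**Figure D3:**
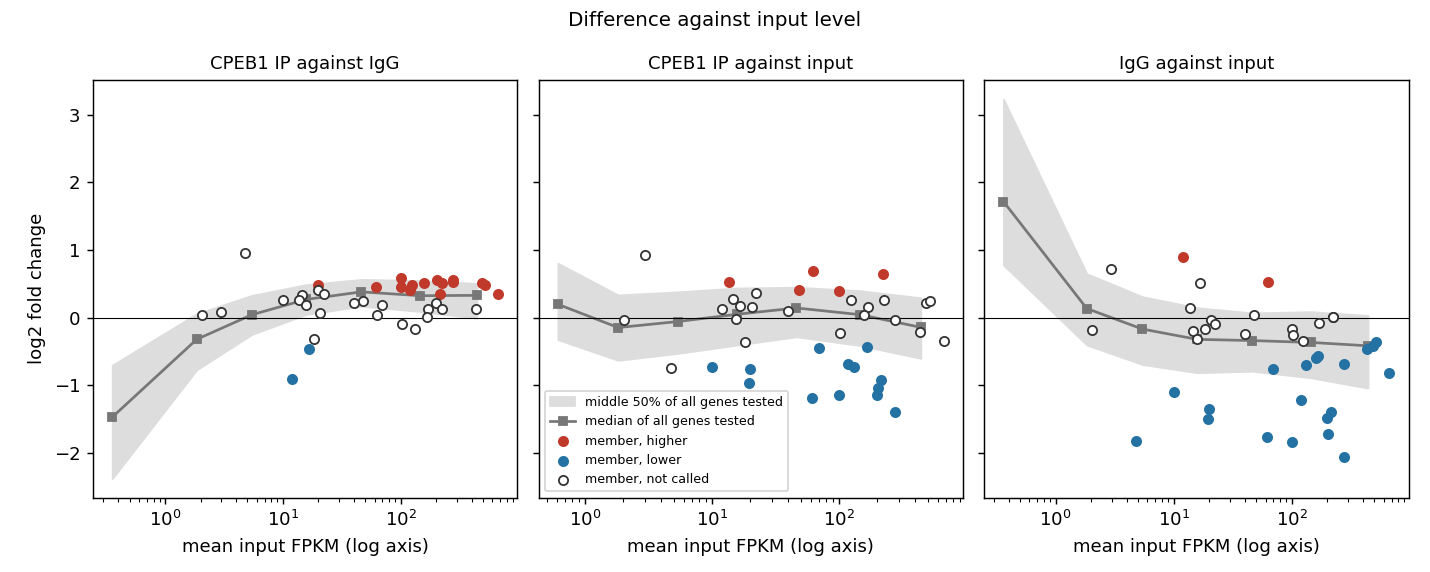
Log2 fold change of each member against its mean input FPKM (log axis), with the median (squares) and the middle 50% (grey band) of all genes tested in 7 classes of input level. Against IgG the median of all genes climbs from -1.47 under 1 FPKM to 0.38 between 30 and 100 FPKM, and the members lie along it at levels where most of them are found.

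Values of single members are given as TMM-scaled CPM (counts relative to the normalized library size) in replicates 1 and 2 of each group, followed by the log2 fold change with its SE and the adjusted p of the same edgeR test. The SE and p rest on 2 libraries a group and on the spread that edgeR shares across genes. The submitters call them biological replicates, and the number of mice behind a library is not given in the sources used here. A library left out leaves its group with 1 library, which is then assumed to vary like the others.

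The EGR zinc finger factors are transcription factors induced by growth factor and stress signaling. Egr1 stood at 3217 and 2878 CPM in CPEB1 IP, 2314 and 2236 CPM in IgG and 4028 and 3991 CPM in input. Its libraries did not overlap between any groups. Egr1 was higher in CPEB1 IP than in IgG (0.36 ± 0.10, adjusted p = 0.00784) and lower in IgG than in input (-0.82 ± 0.12, adjusted p = 8.08e-07), and its difference between CPEB1 IP and input just missed the threshold (-0.35 ± 0.13, adjusted p = 0.0522). Egr2, which also directs Schwann cell myelination, stood at 125 and 113 CPM in CPEB1 IP, 82.9 and 81.7 CPM in IgG and 278 and 283 CPM in input. Its CPEB1 IP values lay above IgG (0.46 ± 0.14, adjusted p = 0.0127) but far below input (-1.19 ± 0.13, adjusted p = 4.06e-05), and IgG lay lower still (-1.77 ± 0.17, adjusted p = 8.54e-11). Egr3, at a mean of 10.01 FPKM in input, was lower than input in CPEB1 IP (-0.73 ± 0.23, adjusted p = 0.0281) and in IgG (-1.10 ± 0.27, adjusted p = 0.00122), and its difference from IgG did not pass (0.26 ± 0.24, adjusted p = 0.439). Leaving out 1 library ended the IgG difference of Egr1 (without IgG 2, adjusted p = 0.0629) and of Egr2 (without CPEB1 IP 1, adjusted p = 0.114). Egr1 passed as lower than input without either input library (adjusted p = 0.0033 and 0.00128). Egr3 lost both of its calls without input 2 (adjusted p = 0.259 for CPEB1 IP and 0.0735 for IgG), and the first also without CPEB1 IP 1 (adjusted p = 0.129).

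The Krüppel-like factors (KLF) are zinc finger regulators of quiescence, growth and differentiation. Klf6 stood at 766 and 735 CPM in CPEB1 IP, 492 and 560.0 CPM in IgG and 574 and 607 CPM in input. Both CPEB1 IP values lay above those of the other 4 libraries. Klf6, whose 3′ UTR holds 6 CPEs, was higher in CPEB1 IP than in IgG (0.45 ± 0.09, adjusted p = 0.00109) and than in input (0.40 ± 0.12, adjusted p = 0.0235). Klf9, a target of glucocorticoid signaling, stood at 1369.8 and 1005 CPM in CPEB1 IP, 1048 and 1018 CPM in IgG and 1019 and 1176 CPM in input. The groups overlapped, because CPEB1 IP 1 was above every other library and CPEB1 IP 2 below the lowest of them. None of its comparisons passed by edgeR with all libraries and the filter on low counts, including CPEB1 IP against IgG (0.13 ± 0.11, adjusted p = 0.41). Its 3′ UTR holds 8 CPEs, more than that of any other member. Without CPEB1 IP 2, however, Klf9 was higher than IgG (0.37, adjusted p = 0.000162), and without input 2 it was higher than input (adjusted p = 0.0438). Klf4 was higher in CPEB1 IP than in input (0.41 ± 0.13, adjusted p = 0.0316) and did not pass against IgG (0.25 ± 0.11, adjusted p = 0.0792). Klf10 passed in no comparison by edgeR with all libraries and the filter on low counts. Against IgG it passed by edgeR without that filter (adjusted p = 0.00215) and with DESeq2 (adjusted p = 0.00809). Klf2, at 6 and 3 counts in the IgG libraries, was lower in IgG than in input (-1.82 ± 0.56, adjusted p = 0.00826). With DESeq2 this Klf2 call did not pass (adjusted p = 0.149), nor did Klf4 in CPEB1 IP against input (adjusted p = 0.0891). The input calls of Klf6 and Klf4 were lost without either CPEB1 IP library (adjusted p from 0.246 to 0.314), and that of Klf4 also without input 1 (adjusted p = 0.0733), while Klf4 passed against IgG without IgG 2 (adjusted p = 0.0294). Klf2 was not called without IgG 2 or input 2 (adjusted p = 0.127 and 0.0718).

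The NR4A orphan nuclear receptors are transcription factors whose activity follows their own rapid induction. Nr4a1 stood at 466 and 491 CPM in CPEB1 IP, 282 and 343 CPM in IgG and 1299.8 and 1312 CPM in input. Input was the highest group and IgG the lowest, with no overlap. Nr4a1 was higher in CPEB1 IP than in IgG (0.55 ± 0.10, adjusted p = 0.000394) and 2.63-fold lower than in input (-1.40 ± 0.12, adjusted p = 8.34e-06), the largest decrease from input among the 39 members. In IgG it was 4.18-fold lower than in input (-2.06 ± 0.14, adjusted p = 9e-15). Its relatives did not share one pattern. Nr4a3 was lower than input in CPEB1 IP (-0.97 ± 0.15, adjusted p = 0.000456) and in IgG (-1.50 ± 0.20, adjusted p = 1.14e-07), whereas Nr4a2 was higher in CPEB1 IP than in input (0.52 ± 0.15, adjusted p = 0.0179) and did not pass in IgG against input (0.15 ± 0.20, adjusted p = 0.585). With all libraries and the filter on low counts neither of them passed against IgG by edgeR. Both did by edgeR without that filter (adjusted p = 0.00576 for Nr4a2 and 0.00186 for Nr4a3). Both also did with DESeq2 (adjusted p = 0.0186 for Nr4a2 and 0.00898 for Nr4a3). When IgG 1 was left out, edgeR gave Nr4a3 a log2 fold change of 0.62 over IgG. The call of Nr4a2 against input was lost without CPEB1 IP 1 or 2 (log2 fold changes 0.43 and 0.60). With DESeq2 on all libraries it did not pass either (adjusted p = 0.0822).

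The immediate early response (IER) genes encode small regulators of growth and survival. Ier2, a single-exon gene and the third most abundant member, stood at 1169 and 1085 CPM in CPEB1 IP, 708 and 796 CPM in IgG and 1088 and 911 CPM in input. Its CPEB1 IP values lay above both IgG values and reached across those of input. Ier2 was higher in CPEB1 IP than in IgG (0.52 ± 0.09, adjusted p = 0.000294) and lower in IgG than in input (-0.41 ± 0.14, adjusted p = 0.013), and CPEB1 IP against input did not pass (0.22 ± 0.13, adjusted p = 0.226). No CPE or ATTTA was found in its 3′ UTR of 755 bases. Ier3 and Ier5 passed in no comparison of all libraries, with log2 fold changes over IgG of -0.10 and 0.07. Input 1 mattered here: without it Ier2 was higher in CPEB1 IP than in input (adjusted p = 0.0083), and Ier3 was lower than input in CPEB1 IP (adjusted p = 0.00374) and in IgG (adjusted p = 0.0209). The log2 fold change of Ier2 in IgG against input was -0.25 without input 1, and the call was lost without IgG 1 or 2 (adjusted p = 0.319 and 0.125).

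Among the other transcription factors, the small MAF proteins Maff and Mafk pair with NRF-type factors at stress response elements. Maff stood at 249 and 246 CPM in CPEB1 IP, 173 and 181 CPM in IgG and 394 and 428 CPM in input. It was higher in CPEB1 IP than in IgG (0.41 ± 0.10, adjusted p = 0.00457) and lower than in input (-0.68 ± 0.12, adjusted p = 0.00121), and it was lowest in IgG (-1.21 ± 0.15, adjusted p = 4.27e-08, IgG against input). Mafk stood at 587 and 544 CPM in CPEB1 IP, 432 and 418 CPM in IgG and 1077 and 1151 CPM in input. The same order of groups was found, with 0.35 ± 0.09, adjusted p = 0.00682 over IgG, -0.93 ± 0.12, adjusted p = 0.000139 against input and -1.39 ± 0.13, adjusted p = 1.03e-10 for IgG against input. Irf1, a target of interferon signaling, stood at 57.0 and 63.4 CPM in CPEB1 IP, 46.3 and 36.6 CPM in IgG and 103 and 109 CPM in input. Its difference from IgG passed narrowly (0.48 ± 0.19, adjusted p = 0.0484), while CPEB1 IP (-0.76 ± 0.15, adjusted p = 0.00209) and IgG (-1.36 ± 0.21, adjusted p = 2.52e-06) were both lower than input. Irf1 no longer passed against IgG without CPEB1 IP 1, CPEB1 IP 2 or IgG 2 (adjusted p = 0.104, 0.332 and 0.194), nor against input without CPEB1 IP 1 (adjusted p = 0.0649).

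Myc, which drives cell growth, stood at 1364 and 1269.8 CPM in CPEB1 IP, 1170.1 and 1125 CPM in IgG and 1669 and 1483 CPM in input. The CPEB1 IP values lay between those of IgG and input. Myc did not pass against IgG (0.13 ± 0.09, adjusted p = 0.285) or input (-0.21 ± 0.13, adjusted p = 0.23), and was lower in IgG than in input (-0.46 ± 0.13, adjusted p = 0.00369). The C/EBP factors act in acute phase and differentiation programs. Cebpd stood at 482 and 396 CPM in CPEB1 IP, 362 and 356 CPM in IgG and 1063 and 938 CPM in input. Input was 2.21-fold above CPEB1 IP (-1.14 ± 0.14, adjusted p = 7.49e-05) and 2.79-fold above IgG (-1.48 ± 0.14, adjusted p = 4.84e-11), and the difference of CPEB1 IP from IgG did not pass (0.22 ± 0.10, adjusted p = 0.117). Cebpb had far lower levels, at 38.5 and 15.0 CPM in CPEB1 IP, 47.8 and 40.9 CPM in IgG and 19.0 and 28.8 CPM in input. CPEB1 IP 1 lay just under the IgG values, and CPEB1 IP 2 lay below every other library. Cebpb was lower in CPEB1 IP than in IgG (-0.91 ± 0.32, adjusted p = 0.0312) and higher in IgG than in input (0.89 ± 0.28, adjusted p = 0.00959). Without CPEB1 IP 2 the first difference was -0.24 (adjusted p = 0.627), without CPEB1 IP 1 it was -1.58 (adjusted p = 3.67e-05), and it did not pass without IgG 1 or 2 (adjusted p = 0.107 and 0.083). The second did not pass without IgG 1 or input 1 (adjusted p = 0.108 and 0.0886). For Myc, the IgG decrease was lost without IgG 1 or 2 (adjusted p = 0.124 and 0.193), and CPEB1 IP passed as lower than input without input 2 (adjusted p = 0.00901). Cebpd passed as higher than IgG without CPEB1 IP 2 (adjusted p = 0.0101).

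The dual-specificity phosphatases (DUSP) switch off MAP kinases. Dusp1, which acts on JNK and p38 and is induced by stress, stood at 1512 and 1456 CPM in CPEB1 IP, 992 and 1002 CPM in IgG and 1009.6 and 959.9 CPM in input. Both CPEB1 IP values lay well above the other 4 libraries, which did not differ between IgG and input beyond their spread (0.02 ± 0.13, adjusted p = 0.939). Dusp1 was 1.42-fold higher in CPEB1 IP than in IgG (0.51 ± 0.09, adjusted p = 0.000242) and 1.56-fold higher than in input (0.64 ± 0.12, adjusted p = 0.0017), and it passed both tests under all 10 alternatives. Dusp5, a nuclear ERK phosphatase, stood at 67.6 and 52.4 CPM in CPEB1 IP, 81.4 and 73.8 CPM in IgG and 49.5 and 59.8 CPM in input. It was lower in CPEB1 IP than in IgG (-0.46 ± 0.17, adjusted p = 0.0362), a call that was lost when any single library was left out (adjusted p from 0.0642 to 0.535, the latter without CPEB1 IP 2), and it passed neither against input (0.17 ± 0.18, adjusted p = 0.505) nor in IgG against input (0.51 ± 0.21, adjusted p = 0.0507). In IgG against input Dusp5 passed as higher without input 2 (adjusted p = 0.036). Dusp2, Dusp4 and Dusp6 passed in no comparison by the main edgeR fit of all libraries (filter on low counts, no block). With DESeq2 on all libraries Dusp6 was higher than IgG (adjusted p = 0.00407). With the replicate number as a block in edgeR, Dusp2 was higher in CPEB1 IP than in input (adjusted p = 0.0484). Dusp6 was higher than IgG without IgG 1 (adjusted p = 0.0103) and higher than input without input 1 (adjusted p = 0.0369), and Dusp2 was higher than input without CPEB1 IP 2 (adjusted p = 0.0467). Dusp2 and Dusp4 were the 2 least abundant members, at 2.97 and 2.05 FPKM in input, and Dusp4 had 2 counts in IgG 2.

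The ZFP36 proteins bind AU-rich elements and speed the decay of the mRNAs that carry them. Zfp36 stood at 454 and 422 CPM in CPEB1 IP, 288 and 280.3 CPM in IgG and 858 and 1013 CPM in input. Input lay 2.06-fold above CPEB1 IP, which in turn lay 1.47-fold above IgG. Both differences passed, with 0.56 ± 0.10, adjusted p = 0.000211 over IgG and -1.04 ± 0.13, adjusted p = 8.01e-05 against input, and IgG was lower than input (-1.72 ± 0.14, adjusted p = 1.56e-12). Zfp36l1 stood at 641 and 619 CPM in CPEB1 IP, 406 and 434 CPM in IgG and 653 and 618 CPM in input. CPEB1 IP and input overlapped (0.04 ± 0.12, adjusted p = 0.845), while IgG was lower than input (-0.60 ± 0.14, adjusted p = 0.000584) and CPEB1 IP was higher than IgG (0.52 ± 0.09, adjusted p = 0.000253). Zfp36l2 went the other way, at 562 and 366 CPM in CPEB1 IP, 429 and 426 CPM in IgG and 299.5 and 291 CPM in input. It was higher than input in CPEB1 IP (0.69 ± 0.17, adjusted p = 0.00813) and in IgG (0.53 ± 0.14, adjusted p = 0.00281), and CPEB1 IP did not differ from IgG beyond the spread (0.04 ± 0.14, adjusted p = 0.866). Its 2 CPEB1 IP values lay on either side of IgG. Without CPEB1 IP 1 its difference from input fell to 0.37 on the log2 scale with an adjusted p of 0.286, and without CPEB1 IP 2 it passed against IgG (0.35, adjusted p = 0.0127). In IgG against input, Zfp36l2 was not called without IgG 1 or 2 (adjusted p = 0.12 and 0.111), nor Zfp36l1 without IgG 1 (adjusted p = 0.0855). All 3 genes hold the extended AU-rich motif 3 times, and CPEs were found once in Zfp36 and 4 times in each of the others.

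Among the brakes on cytokine and NF-κB signaling, Socs3, which blocks JAK signaling, stood at 156 and 181 CPM in CPEB1 IP, 108 and 109 CPM in IgG and 424 and 352 CPM in input. The 3 groups did not overlap. Socs3 had the largest increase over IgG of the members that passed (1.50-fold, 0.58 ± 0.12, adjusted p = 0.00122), and was 2.22-fold lower in CPEB1 IP than in input (-1.15 ± 0.15, adjusted p = 0.000101) and 3.60-fold lower in IgG (-1.85 ± 0.17, adjusted p = 1.26e-11). The increase over IgG just missed the threshold without CPEB1 IP 2 (adjusted p = 0.0519). Nfkbia, which encodes the inhibitor that holds NF-κB in the cytoplasm, stood at 1329.6 and 1225 CPM in CPEB1 IP, 875 and 866 CPM in IgG and 1139 and 1100.2 CPM in input. It was higher in CPEB1 IP than in IgG (0.49 ± 0.09, adjusted p = 0.00039) and lower in IgG than in input (-0.37 ± 0.13, adjusted p = 0.0212), and CPEB1 IP, though above input in both libraries, did not pass (0.24 ± 0.12, adjusted p = 0.154). Its IgG decrease was lost without IgG 1 or 2 (adjusted p = 0.255 and 0.288). Tnfaip3, which removes ubiquitin chains from NF-κB signaling proteins, and Socs1 passed in no comparison by edgeR with all libraries and the filter on low counts. With DESeq2 on all libraries Tnfaip3 was higher than IgG (adjusted p = 0.0205). Both CPEB1 IP values of Socs1 lay below those of IgG (-0.32 ± 0.17, adjusted p = 0.153). Socs1 was lower in CPEB1 IP than in input without input 2 (adjusted p = 0.00544), and Tnfaip3 was lower in IgG than in input without input 1 (adjusted p = 0.0225).

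The GADD45 genes respond to DNA damage and growth arrest signals. Gadd45g stood at 215 and 239.8 CPM in CPEB1 IP, 166 and 146 CPM in IgG and 212 and 182 CPM in input. It was higher in CPEB1 IP than in IgG (0.49 ± 0.11, adjusted p = 0.00249) and did not pass against input (0.26 ± 0.14, adjusted p = 0.174) or in IgG against input (-0.34 ± 0.17, adjusted p = 0.0984). No CPE or ATTTA was found in its 3′ UTR. Its increase over IgG missed the threshold without CPEB1 IP 2 (adjusted p = 0.0508), whereas it passed against input without input 1 (adjusted p = 0.0176) and in IgG against input without input 2 (adjusted p = 0.0101). Gadd45a was lower than input in CPEB1 IP (-0.73 ± 0.20, adjusted p = 0.0127) and in IgG (-0.70 ± 0.16, adjusted p = 0.000582). Gadd45b was likewise lower in CPEB1 IP (-0.44 ± 0.12, adjusted p = 0.0167) and in IgG (-0.57 ± 0.15, adjusted p = 0.00222). Neither of the latter differed from IgG beyond the spread, with log2 fold changes of -0.17 and 0.01. Without CPEB1 IP 1 Gadd45a was lower than IgG (-0.49, adjusted p = 0.0142), and without CPEB1 IP 2 it did not pass against input (adjusted p = 0.233). Gadd45b lost its input call without CPEB1 IP 1 or 2 (adjusted p = 0.276 and 0.156). In IgG against input the calls were lost without IgG 2 (adjusted p = 0.0949 for Gadd45a and 0.0679 for Gadd45b), and for Gadd45b also without IgG 1 (adjusted p = 0.112).

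Of the secreted, GTPase and kinase genes, Ccn1 (Cyr61), a matrix protein induced by YAP signaling, stood at 706 and 707 CPM in CPEB1 IP, 495 and 442 CPM in IgG and 774 and 730.4 CPM in input. The CPEB1 IP values were close to input and well above IgG. Ccn1 was higher in CPEB1 IP than in IgG (0.53 ± 0.09, adjusted p = 0.000233), did not pass against input (-0.04 ± 0.12, adjusted p = 0.828) and was lower in IgG than in input (-0.69 ± 0.14, adjusted p = 9.83e-05), though not without IgG 2 (adjusted p = 0.0585). Sgk1, a kinase induced by serum and glucocorticoids, stood at 1834 and 1579 CPM in CPEB1 IP, 1479 and 1496 CPM in IgG and 1491 and 1466 CPM in input. The 2 CPEB1 IP values were the highest, but no comparison passed by edgeR with all libraries and the filter on low counts. That fit gave 0.13 ± 0.10, adjusted p = 0.321 over IgG and 0.26 ± 0.13, adjusted p = 0.141 against input. With DESeq2 on all libraries Sgk1 was higher than IgG (adjusted p = 0.000211). Without CPEB1 IP 2 it passed against IgG (0.26, adjusted p = 0.00496). Rhob, a short-lived GTPase, was lower than input in CPEB1 IP (-0.45 ± 0.16, adjusted p = 0.0416) and in IgG (-0.76 ± 0.17, adjusted p = 0.000269), and the first call was lost without CPEB1 IP 1 or 2 (adjusted p = 0.053 and 0.532). Ccl2, a chemokine that other cells of muscle also make, stood between 50.2 and 66.9 CPM in the 6 libraries and passed in no comparison by edgeR with the filter on low counts.

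The number of members that passed against IgG differed most from the values above under a pair of settings that changed the zero point of the log2 scale together with the genes tested or the test. With only the scaling changed, 15 members were higher with RLE size factors and 14 with counts on genes as the library size, and 2 were lower in each. When genes with low counts were kept in the fit, the median of all genes tested moved by 0.40 on the log2 scale and 29 members were higher and 0 lower. Of the 42045 genes in that fit, 3513 were higher and 2336 lower. With DESeq2 the median moved by 0.28, and 25 members were higher and 0 lower, beside the 15 and 2 given above. Of 42045 genes with DESeq2, 2635 were higher and 998 lower. The members that passed as higher under both of these settings beside the 15 were Klf4, Klf10, Nr4a2, Nr4a3, Myc, Cebpd, Dusp6, Tnfaip3, Rhob and Sgk1, and Klf9, Zfp36l2, Gadd45b and Ccl2 passed with low counts kept alone. Under both settings 0 members were lower at an unadjusted p under 0.05 as well. Relative to the median of all genes the members' median was 0.27 higher under each of these settings. This offset is not matched for abundance. At 10 FPKM or more in input, the main fit gave medians of 0.298 over 36 members and 0.304 over 3699 genes. Each of the 15 higher members kept a log2 fold change above 0 under all 10 alternatives, the lowest being 0.28 for Mafk. For 10 members (Mafk, Cebpb, Cebpd, Irf1, Dusp1, Dusp5, Zfp36, Zfp36l1, Zfp36l2 and Gadd45a), annotated exons overlap those of a gene on the other strand, and without strand their reads cannot be told apart from those of the partner.

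CPEB1-associated transcripts were defined in the study by a CPEB1 IP to IgG ratio of FPKM that exceeded 2 in both experiments and by a passed count test. The ratio was taken here on FPKM plus 1. Libraries of the same replicate number were taken here as an experiment, which the labels do not state. With the edgeR test in that place, 14 of the 39 members met it, namely the 15 that were higher than IgG except Irf1, whose ratios were 1.82 and 2.57. Of all genes tested 12.1% met it, and of those with at least 10 FPKM in input 33.6%. The ratio passed 2 in both experiments for 14 members, against 14.4% of all genes tested, only in the first for 8, only in the second for 6 and in neither for 11. Of the 3699 genes with at least 10 FPKM in input, 1407 passed 2 in both. The highest ratio in the first experiment was 2.66 (Ier2) and in the second 2.80 (Gadd45g), and the lowest were 1.07 (Dusp4) and 0.666 (Cebpb). The median log2 ratio was 1.06 and 1.09 over the members and 0.54 and 0.61 over all genes tested. Over the genes with at least 10 FPKM in input it was 0.99 and 1.05, near that of the members. The FPKM refer to library totals, of which the IgG libraries had the smallest part on genes. On TMM library sizes no member had a ratio above 2 in both experiments with a passed test, against 14 on the deposited scale, and 74 of all genes tested did.

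**Figure D4:**
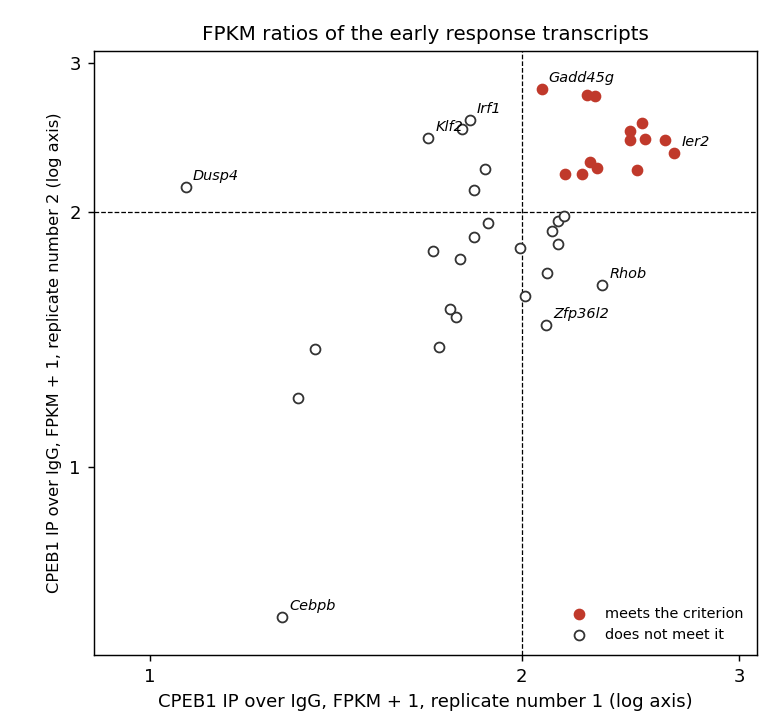
CPEB1 IP to IgG ratio, taken on FPKM plus 1, of each of the 39 members, with replicate number 1 on the horizontal and number 2 on the vertical log axis. Dashed lines mark a ratio of 2, filled points are the 14 members that met the criterion, and Cebpb lies lowest on the vertical axis.

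The members that passed against IgG were set beside the others by their motifs. A CPE was found in 11 of the 15 higher members (73.3%) and in 18 of the 22 that did not pass (81.8%). The medians of the longest 3′ UTR were 944 and 1258 bases. TATTTAT was found in 10 of the 15 (66.7%) and in 11 of the 22 (50%). Over all genes tested with a 3′ UTR, a CPE was found in 59.4% of the higher and 67.4% of those that did not pass. For TATTTAT these shares were 27.0 and 33.9%. The median input level was 202 FPKM in the 15 higher members and 31.1 FPKM in the 22 that did not pass. Across the 39 members, Spearman's rho of the log2 fold change over IgG was 0.35 with the input FPKM, 0.16 with the number of CPEs and 0.33 with the number of TATTTAT matches. Over all 12124 genes tested rho was 0.63 with the input FPKM. Over the 10875 of them with a 3′ UTR it was -0.17 with the number of CPEs and -0.13 with that of TATTTAT matches. These correlations are across genes that share the same 4 libraries, so they describe and carry no test.

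A wider list of 54 other genes that serum or stress induces was set beside the members. Of these, 24 (44.4%) were higher in CPEB1 IP than in IgG and 1 (1.85%) was lower. Their median was 0.30 on the log2 scale. Of all genes tested 14.7% were higher and 18.7% lower. Among genes with at least 10 FPKM in input 39.1% were higher and 4.79% lower, with a median of 0.30. Against input, 12 (22.2%) were higher and 17 (31.5%) lower in CPEB1 IP, and in IgG 7 (12.96%) were higher and 29 (53.7%) lower. Of all genes tested against input, 17% were higher and 15.8% lower in CPEB1 IP, and 21.4 and 19.4% in IgG. Among genes with at least 10 FPKM in input, these shares were 24.7 and 21.6% in CPEB1 IP and 10.5 and 40.3% in IgG. The heat shock chaperone Hspa1a was higher in CPEB1 IP than in IgG (0.77 ± 0.11, adjusted p = 4e-05) and lower than in input (-2.08 ± 0.14, adjusted p = 7.54e-07), although its near-identical copy Hspa1b makes the split of reads between the pair uncertain. Dnajb1, another chaperone gene, was lower than input in CPEB1 IP (-1.72 ± 0.13, adjusted p = 2.2e-06) and in IgG (-2.30 ± 0.13, adjusted p = 5.63e-17). Hmox1, which encodes the heme-degrading enzyme of the oxidative stress response, was higher than input in CPEB1 IP (3.02 ± 0.15, adjusted p = 9.01e-08) and in IgG (2.52 ± 0.17, adjusted p = 3.91e-15). Cxcl2, a neutrophil chemokine, and Odc1, the first enzyme of polyamine synthesis, were higher than input in CPEB1 IP by 1.57 and 1.50 on the log2 scale. Both were also higher than input in IgG, by 1.57 and 1.24.

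Relatives of the members that are not on the list were also counted. Of 61 named paralogs 53 were tested against IgG. Of all genes tested 14.7% were higher and 18.7% lower in CPEB1 IP, beside 9 (17.0%) and 5 (9.43%) of the paralogs, whose median was 0.13. Among them Dusp3, a phosphatase of the same family as Dusp1, was higher than IgG (0.84 ± 0.16, adjusted p = 0.000412), as was Klf13 (0.70 ± 0.12, adjusted p = 0.000243). Against input, 8 (15.4%) of 52 paralogs were higher in CPEB1 IP and 12 (23.1%) lower, beside 17 and 15.8% of all genes tested. Ccn2, the relative of Ccn1, was higher than input (1.29 ± 0.13, adjusted p = 2.59e-05), and Nfkbie (-2.20 ± 0.16, adjusted p = 1.92e-06) and Dusp8 (-1.81 ± 0.14, adjusted p = 2.67e-06) were lower. These differences from input were shared by IgG. There Ccn2 was higher as well, at 1135 and 1156 CPM against 475 and 572 CPM in input. Nfkbie and Dusp8 were lower in IgG than in input (log2 fold changes -2.11 and -2.19). Of 53 paralogs tested in IgG, 5 (9.43%) were higher than input and 15 (28.3%) lower, beside 21.4 and 19.4% of all genes tested.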

How the data were processed

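RIP-seq libraries of fiSCs (2 CPEB1 IP, 2 IgG and 2 input) were grouped by their labels. Reads had been mapped to mm10 with HISAT2 and counted on genes with featureCounts, and the authors deposited raw counts and FPKM for each library. The strand setting, the annotation release and the treatment of multi-mapped reads are not given in the sources used here. The deposited FPKM refer to a library total larger than the counts on genes, and were used for levels between genes and for the ratio of CPEB1 IP to IgG, with a pseudocount of 1.

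Counts were tested in R 4.3.3 with edgeR 4.0.16 (filterByExpr, TMM, quasi-likelihood test, 2 groups at a time, Benjamini-Hochberg adjustment at 0.05 over all genes tested). The SE is the log2 fold change divided by the square root of F. CPM were scaled by TMM over the 6 libraries. DESeq2 1.42.0, other size factors, no filter on low counts, all 6 libraries in 1 fit, a replicate block and leaving out each library were alternatives. The test was checked on simulated counts. Python 3.11.15 with pandas 2.3.3, numpy 2.4.6, scipy 1.17.1 and matplotlib 3.10.9 did the rest. Of 55376 genes, 54488 were matched to GENCODE M21 (mm10) by symbol and place.

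The members and the lists beside them were chosen with earlier results of these data known. Full values are given for members that passed the test of CPEB1 IP against IgG and for the 12 highest in input, 21 in all. Other members called in the remaining comparisons were named after their values were seen. At most 3 genes in each direction were named from the lists of 61 paralogs and 54 other stress-induced genes. With 2 libraries a group, the error of a gene leans on edgeR's pooled estimate.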

Additional observations from a re-analysis of the deposited data

How the results depend on the processing

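The counts of members called against IgG moved most with DESeq2 and with no filter, which change the test or the genes tested as well as the scaling. RLE size factors alone gave 15 higher and 2 lower, and counts on genes only gave 14 and 2. The cause was not tested. With DESeq2, 25 members were higher and 0 lower than IgG, beside 15 and 2. With no filter on low counts edgeR called 29 higher and 0 lower, and with all 6 libraries in 1 fit 15 and 0. At an unadjusted p under 0.05, 0, 0 and 1 members were lower under these 3 settings. Against input, DESeq2 called 3 members higher in CPEB1 IP, beside 5. In that comparison it ended the calls of Klf4, Nr4a2 and Egr3 (adjusted p = 0.0891, 0.0822 and 0.062) and passed Egr1 as lower (adjusted p = 0.00769). In IgG against input it ended those of Klf2, Cebpb and Zfp36l2 (adjusted p = 0.149, 0.272 and 0.063). In IgG 0 members were higher than input with DESeq2 and with no filter, beside 2, and 1 was at an unadjusted p under 0.05 in each. The median of all genes moved by 0.40 (no filter) and 0.28 (DESeq2) on the log2 scale against IgG, and by -0.27, -0.14 and 0.11 (no filter, DESeq2 and counts on genes only) in IgG against input. Over all genes the sets differed in size, so these counts are not like for like. The main fit called 1779 higher and 2265 lower than IgG of 12124 genes. EdgeR with no filter called 3513 and 2336 of 42045, and DESeq2 2635 and 998 of 42045. In CPEB1 IP against input DESeq2 called 1227 higher and 1189 lower of 34778 genes, beside 2069 and 1921 of 12171. In IgG against input it called 1134 higher and 1594 lower of 40052 genes, beside 2772 and 2515 of 12980. Leaving out 1 library gave 1054 to 1783 and 677 to 1750 genes higher and lower than IgG, 957 to 2646 and 1064 to 2347 in CPEB1 IP against input, and 1354 to 2170 and 1709 to 2400 in IgG against input. No called member changed sign under any of the alternatives.

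Leaving out 1 library gave 13 to 17 members higher and 0 to 2 lower than IgG (0 without CPEB1 IP replicate 2 or either IgG library). It gave 1 to 7 members higher (1 without CPEB1 IP replicate 1 and 3 without replicate 2) and 9 to 15 lower in CPEB1 IP than in input. IgG had 0 to 3 members higher than input (0 without IgG replicate 1, 1 without IgG replicate 2 or input replicate 1) and 13 to 22 lower (13 without IgG replicate 2). In these fits the lone library was assumed to vary like the other group.

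With TMM library sizes 0 members met the FPKM criterion, beside 14, and 13 to 17 met it under the other alternatives. The members held 1.91 and 1.90% of the summed FPKM of the CPEB1 IP libraries, 1.29 and 1.24% of IgG and 2.53 and 2.37% of input. Without Egr1, they held 1.52 and 1.44% of the counts of the CPEB1 IP libraries, 1.22 and 1.21% of IgG and 1.76 and 1.70% of input. The order of the groups was the same in each.

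The deviations of libraries with the same replicate number had correlations of -0.01, -0.02 and 0.03 between the groups, so the numbers were not taken to pair samples. With the replicate number as a block, 14 members were higher and 2 lower than IgG, 4 higher and 12 lower in CPEB1 IP than in input, and 3 higher and 20 lower in IgG than in input. The block ended the calls of Irf1 against IgG (adjusted p = 0.0543) and of Klf6, Klf4 and Rhob against input in CPEB1 IP (adjusted p = 0.0799, 0.0651 and 0.0507). Under it Dusp2 passed as higher in CPEB1 IP than in input and Dusp5 as higher in IgG than in input (adjusted p = 0.0484 and 0.0402). It changed no other call of a member. Depth limits Egr3, Klf2, Dusp2 and Dusp4 most. The other 35 members had at least 50 counts in every library, and the lowest count was 2 (Dusp4 in an IgG library).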
